A study of Mus musculus with 4 samples.

Results

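The genes followed here are 10 mRNAs of fat storage and fat signaling in mouse soleus muscle: the adipokines Lep, Adipoq, Cfd and Retn, the lipid droplet proteins Plin1, Plin2, Plin4, Plin5 and Cidec, and the lipase Pnpla2. They were chosen by name, and all 10 had a row among the 23420 genes of the deposited table. All 10 also passed the filter on low values (a mean of at least 10 normalized counts), as did 13287 genes in all. RNA was sequenced from the soleus of 4 mice, 2 muHuR-KO (1-9 and 3-9) and 2 control (3-8 and 3-12), all C57BL/6 and aged 10 weeks. The study describes its controls as littermates, and the labels do not say which of these mice shared a litter. Mice labelled muHuR-KO carry MyoDCre, a Cre recombinase under the MyoD promoter that acts in muscle progenitors from the embryo on and removes an exon of Elavl1, the gene for the RNA-binding protein HuR. Control mice lack the Cre, and LoxP-/- is written for all 4 mice where the study describes floxed Elavl1 alleles. The promoter that drives the Cre belongs to the muscle lineage, and its activity in the fat cells of the muscle was not measured. Elavl1 was at 1350 normalized counts in control 3-8 and 1190 in control 3-12, with 1210 (1-9) and 1205 (3-9) in muHuR-KO. Reads of all exons enter these counts, not those of the removed exon alone, so they check no genotype.

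White adipocytes keep triglyceride in a single large droplet that is coated by PLIN1, and CIDEC moves lipid between droplets so that they grow. They also release hormones and other proteins, the adipokines, among them leptin, adiponectin, adipsin (complement factor D) and, in mice, resistin. Muscle fibers hold many small droplets next to mitochondria, coated mainly by PLIN2 and PLIN5, and release fatty acids from them through the lipase ATGL, the product of Pnpla2. In a whole muscle, adipocyte mRNAs can come from fat cells between the fibers or at the edge of the sample. Such bulk RNA cannot tell fewer adipocytes from less RNA per adipocyte. Accordingly Lep, Adipoq, Cfd, Retn, Plin1 and Cidec are treated here as 6 adipocyte genes and Plin4 as a gene of both cell types. Plin2, Plin5 and Pnpla2 are treated as 3 lipid droplet genes of muscle. Their reads, those of Pnpla2 included, can also come from adipocytes in the sample. HuR acts on many mRNAs, and the comparisons ask whether the level of these 10 differed between muHuR-KO and control muscle.

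Control 3-8 stood apart from the other 3 libraries. Over the 13287 genes tested its distance from them on the log2 scale was 73.0 to 89.8, whereas the other 3 libraries were 48.9 to 54.1 from each other. Its values also shifted with the GC content of the transcripts. Each result is therefore given against both controls and against each control on its own. The muHuR-KO libraries held 30362871 reads (1-9) and 33348893 reads (3-9), control 3-8 held 25767295 reads, and control 3-12, the shallowest, held 13301715 reads. A count of 1 read corresponds to 0.977 normalized counts in control 3-8 and to 1.84 in control 3-12, so low values are least precise in the latter. Intervals given for single libraries are exact 95% Poisson intervals and cover counting error only. Each library came from 1 mouse, and with 2 mice a group the spread is poorly known. An exact permutation of 2 against 2 libraries cannot go below p = 0.333, and the tests are therefore those of limma, fitted across all genes.

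Against both controls, none of the 10 mRNAs passed the test in muHuR-KO soleus (limma). The adipocyte genes instead differed most between the 2 control mice: each of the 6 was lowest in control 3-8 and highest in control 3-12, with both muHuR-KO mice in between. Lep differed 8.98-fold between the controls, Adipoq 3.42-fold and Plin1 2.96-fold. Plin4 and Plin5 followed another order and were highest in muHuR-KO 3-9. The levels of Plin2 and Pnpla2 stayed within a narrow range over the 4 mice, 1.29-fold and 1.34-fold.

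**Figure D1:**
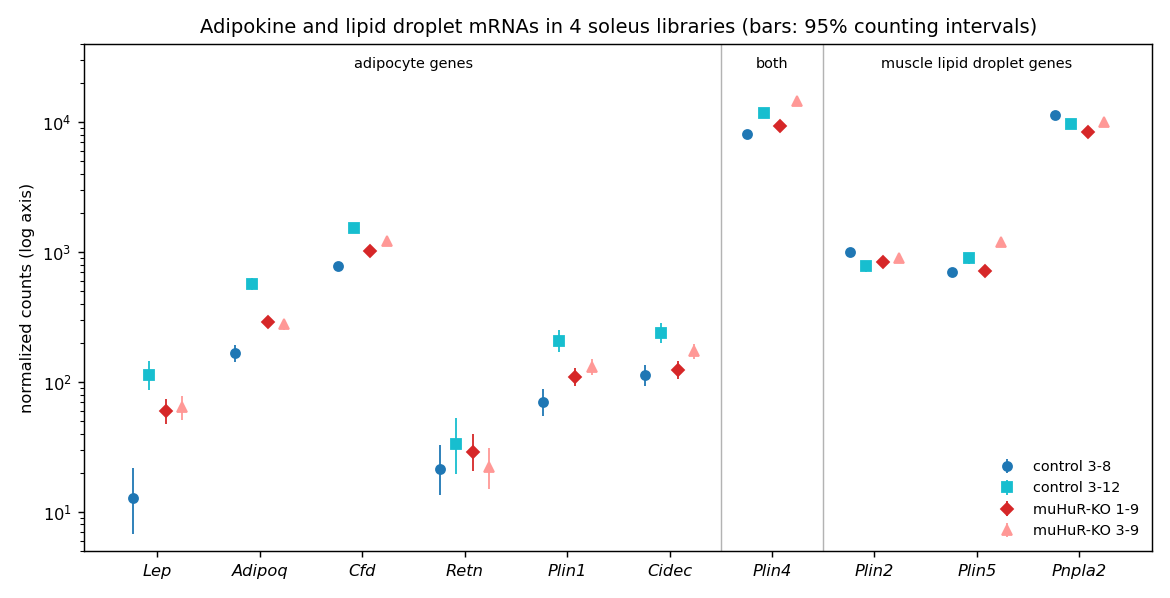
Normalized counts (vertical axis, log scale) of the 10 genes in each of the 4 libraries, with bars for the 95% counting interval of each library. For the 6 adipocyte genes on the left, control 3-8 (circles) is lowest and control 3-12 (squares) highest, as for Adipoq at 166 and 568 normalized counts. Plin2 and Pnpla2 show the narrowest ranges.

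Lep encodes leptin, the hormone by which fat tissue signals the size of its stores to the brain. The gene (ENSMUSG00000059201.12) lies on chromosome 6 of GRCm38 from 29060220 to 29073877 on the plus strand. Its promoter is shown because Lep differed most between the mice. The stretch is chr6:29059971-29060270 on the plus strand, from 250 bases before to 50 bases after the start given by RefSeq for GRCm38.p6.
Lep: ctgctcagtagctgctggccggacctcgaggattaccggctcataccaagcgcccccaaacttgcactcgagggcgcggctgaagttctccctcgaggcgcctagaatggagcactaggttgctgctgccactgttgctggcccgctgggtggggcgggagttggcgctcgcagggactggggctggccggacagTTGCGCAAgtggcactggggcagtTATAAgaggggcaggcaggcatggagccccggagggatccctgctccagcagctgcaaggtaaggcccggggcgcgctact
The capitals mark a match to TTGCNNAA, a binding motif of C/EBP proteins, which act in adipocyte differentiation, and a TATA box (TATAA). The first begins at position -55 and the second at -31 from the start. The C/EBP motif, read on both strands, occurs in 10.8% of 32851 mouse promoters of this length, and TATAA on the gene's strand in 17.5%. A match describes the letters and does not show that a factor binds.

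Control 3-8 had 12.7 normalized counts of Lep, from 13 reads, with an interval of 6.76 to 21.7. Control 3-12 had 114 normalized counts from 62 reads (87.4 to 146), muHuR-KO 1-9 had 59.3 from 80 reads (47.0 to 73.8), and muHuR-KO 3-9 had 63.8 from 90 reads (51.3 to 78.4). The muHuR-KO mice thus lay next to each other, while the controls lay far below and far above them, beyond counting error. Group means were 63.4 ± 71.7 normalized counts in controls and 61.5 ± 3.18 in muHuR-KO (SD, n = 2 each). The log2 fold change of muHuR-KO against both controls was 0.66 (standard error 0.87), with an adjusted p of 0.9999 from limma. Against control 3-8 Lep was 2.19 higher on the log2 scale (standard error 0.38, adjusted p = 0.00917, limma). Against control 3-12 the log2 fold change was -0.88 (standard error 0.38, adjusted p = 0.9998, limma). The call against control 3-8 rests on the 13 reads of that library. It was lost when the genes of low values were kept in the fit (adjusted p = 0.273) and when limma was run without a trend (0.0615).

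Of the 10 genes, 1 (Lep) passed the test against control 3-8, where 9.81% of all genes tested passed and 9.69% were called higher. Against both controls 0 of the 10 passed, as did 0% of all genes by limma, and 0 by edgeR and by DESeq2. At an unadjusted p under 0.05 that comparison held 0 of the 10 and 0.768% of all genes. Against control 3-12 0 of the 10 passed, again with 0% of all genes by limma, while edgeR called 1 gene and DESeq2 9, none of them among the 10. At an unadjusted p under 0.05, 4 of the 10 (Lep, Adipoq, Plin1 and Cidec) lay below control 3-12, where 4.74% of all genes had such a p. Against control 3-8, 4 of the 10 (Lep, Adipoq, Cfd and Plin1) lay above at that level, where 22.0% of all genes had such a p. The comparisons against each control share the muHuR-KO libraries, and each has a lone control whose spread is taken to be that of the muHuR-KO pair.

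Adipoq encodes adiponectin, a hormone that promotes fatty acid oxidation in muscle and liver. The gene (ENSMUSG00000022878.5, chromosome 16, 23146536 to 23158028, plus strand) was at 166 normalized counts in control 3-8 and 568 in control 3-12. It was at 287 in muHuR-KO 1-9 and 279 in muHuR-KO 3-9. The muHuR-KO mice differed by less than their counting error, and the controls lay on either side. Against both controls the log2 fold change was -0.12 (standard error 0.53, adjusted p = 0.9999, limma). It was 0.76 against control 3-8 (standard error 0.25, adjusted p = 0.0997, limma) and -1.01 against control 3-12 (standard error 0.25, adjusted p = 0.624, limma).

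Cfd encodes adipsin, the protease that starts the alternative pathway of complement and is made in quantity by adipocytes. On chromosome 10 from 79890853 to 79892655, plus strand (ENSMUSG00000061780.6), it was the most abundant of the 6 adipocyte genes. Its normalized counts were 778 in control 3-8 and 1541 in control 3-12, with 1026 (1-9) and 1217 (3-9) in muHuR-KO. The order of the mice was again that of Lep, over a 1.98-fold range. Log2 fold changes were 0.029 against both controls (standard error 0.36), 0.52 against control 3-8 (standard error 0.22, adjusted p = 0.212, limma) and -0.46 against control 3-12 (standard error 0.22).

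Retn encodes resistin, an adipocyte hormone in mice. It lies on chromosome 8 from 3655770 to 3660110, plus strand (ENSMUSG00000012705.16), and was near the limit of these libraries. Normalized counts were 21.5 in control 3-8, from 22 reads (interval 13.5 to 32.5), and 33.1 in control 3-12, from 18 reads (19.6 to 52.3). They were 28.9 in muHuR-KO 1-9, from 39 reads (20.6 to 39.5), and 22.0 in muHuR-KO 3-9, from 31 reads (14.9 to 31.2). All 4 intervals, which cover counting error only, overlap. The log2 fold change of Retn was -0.079 against both controls (standard error 0.46, adjusted p = 0.9999, limma). It was 0.22 against control 3-8 and -0.38 against control 3-12 (standard error 0.46 each). As for the other adipocyte genes, control 3-8 was lowest and control 3-12 highest, but control 3-8 and muHuR-KO 3-9 were nearly level.

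Plin1 encodes perilipin 1, the coat of the adipocyte droplet that keeps lipases away until hormones act. The gene (ENSMUSG00000030546.14) lies on chromosome 7 from 79720218 to 79732903 on the minus strand. Its promoter is shown because it holds 2 matches to the C/EBP motif. The stretch is chr7:79732727-79733026, minus strand, GRCm38.p6, from RefSeq, with the matches in capitals at positions -187 and -58.
Plin1: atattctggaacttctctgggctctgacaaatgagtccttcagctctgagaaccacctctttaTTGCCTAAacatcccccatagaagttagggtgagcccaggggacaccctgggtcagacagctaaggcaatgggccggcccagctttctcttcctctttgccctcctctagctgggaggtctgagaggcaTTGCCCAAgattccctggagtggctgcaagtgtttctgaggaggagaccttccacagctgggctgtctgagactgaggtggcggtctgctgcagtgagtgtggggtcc
Among the other adipocyte genes, TTGCNNAA was matched in Cidec (its second start, position -198) and not in the windows of Adipoq, Cfd or Retn.

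Plin1 was at 70.3 normalized counts in control 3-8 and 208 in control 3-12, against 110 in muHuR-KO 1-9 and 131 in muHuR-KO 3-9. Controls averaged 139 ± 97.3 and muHuR-KO 120 ± 15.2 (SD, n = 2 each), so the spread of the controls was wider than the gap between the groups. The log2 fold change was -0.013 against both controls (standard error 0.50), 0.76 against control 3-8 (standard error 0.31, adjusted p = 0.188, limma) and -0.79 against control 3-12 (standard error 0.31, adjusted p = 0.968, limma). Cidec (ENSMUSG00000030278.11, chromosome 6, 113424634 to 113435760, minus strand) was at 113 normalized counts in control 3-8 and 239 in control 3-12, with 124 (1-9) and 172 (3-9) in muHuR-KO. Unlike Lep and Adipoq, it also differed between the muHuR-KO mice, 1.39-fold. Its log2 fold change was -0.18 against both controls (standard error 0.42), 0.36 against control 3-8 (standard error 0.31) and -0.71 against control 3-12 (standard error 0.31), and none passed the test.

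**Figure D2:**
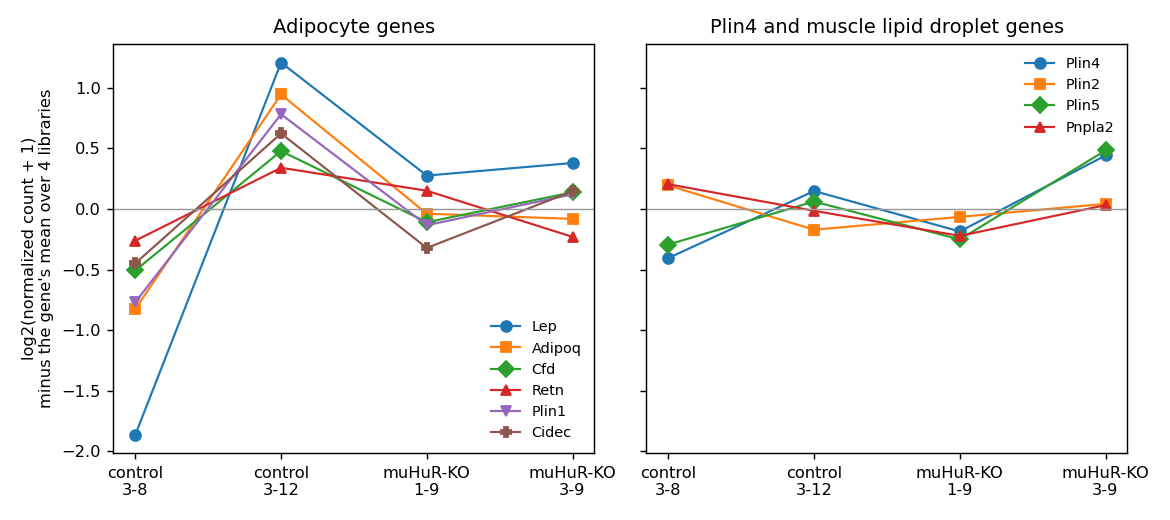
Each gene's log2(normalized count + 1) minus its mean over the 4 libraries (vertical axis), with lines joining the values of 1 gene across the libraries. The 6 adipocyte genes (left) are at their lowest in control 3-8 and at their highest in control 3-12. Plin4 and Plin5 (right) run close together and peak in muHuR-KO 3-9.

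The 6 adipocyte genes shared their lowest and highest library but did not keep a fixed proportion. By the root mean square difference of centered log2 values they were not a group apart. Retn was nearest to Cfd (0.27) but nearer to Pnpla2 (0.37) than to Adipoq (0.43). Cfd was nearest to Cidec (0.13) but nearer to Plin4 (0.23) than to Adipoq (0.30). Among the ratios to Adipoq, that of Plin1 was steadiest, 0.424 in control 3-8 and 0.366 in control 3-12, with 0.382 (1-9) and 0.471 (3-9) in muHuR-KO. The ratio of Lep to Adipoq was 0.0765 in control 3-8 and 0.201, 0.207 and 0.229 in control 3-12, muHuR-KO 1-9 and muHuR-KO 3-9. Lep was thus low in control 3-8 beyond the general low level of adipocyte genes there, and in even proportion to Adipoq in the other 3 mice. For Cfd the ratio to Adipoq ran the other way, 4.69 in control 3-8 and 2.71 in control 3-12. It was 3.58 and 4.37 in the muHuR-KO mice. These ratios carry no correction for GC content, which was 47.5% for Adipoq, 56.9% for Plin1 and 58.4% for Cfd. After such a correction, the log2 difference of control 3-12 from control 3-8 was 1.58, 1.86 and 1.32 in that order. Before it the differences were 1.77, 1.55 and 0.985. Both muHuR-KO libraries lay between the controls for 7 of the 10 genes (the 6 adipocyte genes and Plin2) and for 33.1% of all genes tested. The order with control 3-8 lowest and control 3-12 highest was shown by 6 of the 6 adipocyte genes, 0 of the other 4 and 18.8% of all genes. Control 3-12 was above control 3-8 for 8 of the 10 and for 48.5% of all genes. For 0 of the 10 did the muHuR-KO libraries lie wholly above or below the controls, which 22.6% of all genes did. Without the GC correction, the median log2 difference of control 3-12 from control 3-8 was 1.31 over the 6 adipocyte genes. It was 0.067 over the other 4 and -0.027 over all genes. Of those 4, Plin4 (0.55) and Plin5 (0.35) were higher in control 3-12, and Plin2 (-0.36) and Pnpla2 (-0.22) were lower. These shares are across genes, which are not independent replicates.

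Most other adipocyte genes on a list of markers were also lower in control 3-8 than in control 3-12. Of 31 adipocyte genes on the list, 26 were higher in control 3-12 than in control 3-8, and 20 of the 25 that remain without the 6 genes, where 48.5% of all genes were. Control 3-8 was lowest and control 3-12 highest for 8 of those 25 and for 18.8% of all genes. Summed over the 25, the normalized counts were 25495 in control 3-8 and 41013 in control 3-12, with 30479 (1-9) and 29287 (3-9) in muHuR-KO. That sum is led by a few abundant genes given below, and its gap between the controls comes largely from Scd1 and Gpam. Against both controls and against control 3-12, 0 of the 31 passed the test in either direction. Against control 3-8, 5 of the 31 rose and 0 fell, where 9.69% of all genes rose. These were Lep, Acvr1c, Lgals12, Nnat and, named after its value was seen, Npr3. Acvr1c, a receptor of the TGF-beta family, was at 12.7 normalized counts in control 3-8 and 116 in control 3-12, with 63.7 (1-9) and 57.4 (3-9) in muHuR-KO, values close to those of Lep. Lgals12, a galectin of adipocyte droplets, was at 19.5, 143, 86.0 and 68.8 in the same order of libraries. Nnat, an imprinted gene first described in the brain, was at 88.9, 561, 441 and 235. The natriuretic peptide receptor gene Npr3 followed another order, at 1647 in control 3-8 and 2632 in control 3-12, with 2656 (1-9) and 3180 (3-9) in muHuR-KO.

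The most abundant genes of that list are not made by adipocytes alone. Fabp4, a fatty acid carrier also found in endothelium, was at 7772 normalized counts in control 3-8 and 9190 in control 3-12, with 10483 (1-9) and 7676 (3-9) in muHuR-KO. Scd1, a fatty acid desaturase, was at 2892, 10731, 5169 and 3607 in that order. Gpam, which begins triglyceride synthesis, was at 3234, 6563, 3393 and 5415, and Dgat2, which ends it, at 3784, 3190, 2284 and 3186. Scd1 and Gpam thus had control 3-8 lowest and control 3-12 highest, as the 6 genes did. Fabp4 was also higher in control 3-12 than in control 3-8, but was lowest in muHuR-KO 3-9 and highest in muHuR-KO 1-9. Dgat2 was lower in control 3-12 than in control 3-8. Of 8 genes of brown adipocytes, Ucp1, which defines that cell, had 0 reads in all 4 libraries, and 3 reads correspond to 2.13 to 5.52 normalized counts. The 7 others that were tested gave 0 calls in every comparison.

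Markers of several other cells also differed between the mice, and some were lower in control 3-8 as well. The median log2 difference of control 3-12 from control 3-8 was 0.60 over the 31 adipocyte genes, 0.57 over tendon markers (5 of 7 higher), 0.43 over macrophage markers (6 of 7) and 0.36 over PPAR targets of muscle (12 of 14). Relative to the mean of the 4 libraries, control 3-8 had the lowest median of tendon (-0.61) and macrophage markers (-0.54), as of adipocyte genes (-0.34). The summed levels of the macrophage, tendon, progenitor, Schwann and endothelial markers, which rest on the most abundant genes, were highest in a muHuR-KO mouse and not in control 3-12. The summed macrophage markers were at 912 normalized counts in control 3-8 and 1225 in control 3-12, with 1820 (1-9) and 1026 (3-9) in muHuR-KO. Tendon markers were highest in muHuR-KO 1-9 (16169) against 8052 to 9598 in the other 3, as were markers of adipogenic progenitors (27589 against 16838 to 19077). Schwann cell markers had 4886 in control 3-8 and 5653 in muHuR-KO 3-9, against 2583 in control 3-12 and 2998 in muHuR-KO 1-9. Endothelial markers kept between 15330 and 19877. The 10 muscle fiber genes, all present, summed to between 2375440 and 3578920 normalized counts, with the highest sum in control 3-8. Against control 3-8 the test called 2 of 7 macrophage, 3 of 7 tendon and 1 of 10 progenitor genes higher and 0 of 9 endothelial and 0 of 7 Schwann genes, where 9.69% of all genes were called higher. What share of the adipocyte differences goes with any of these markers was not tested.

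**Figure D3:**
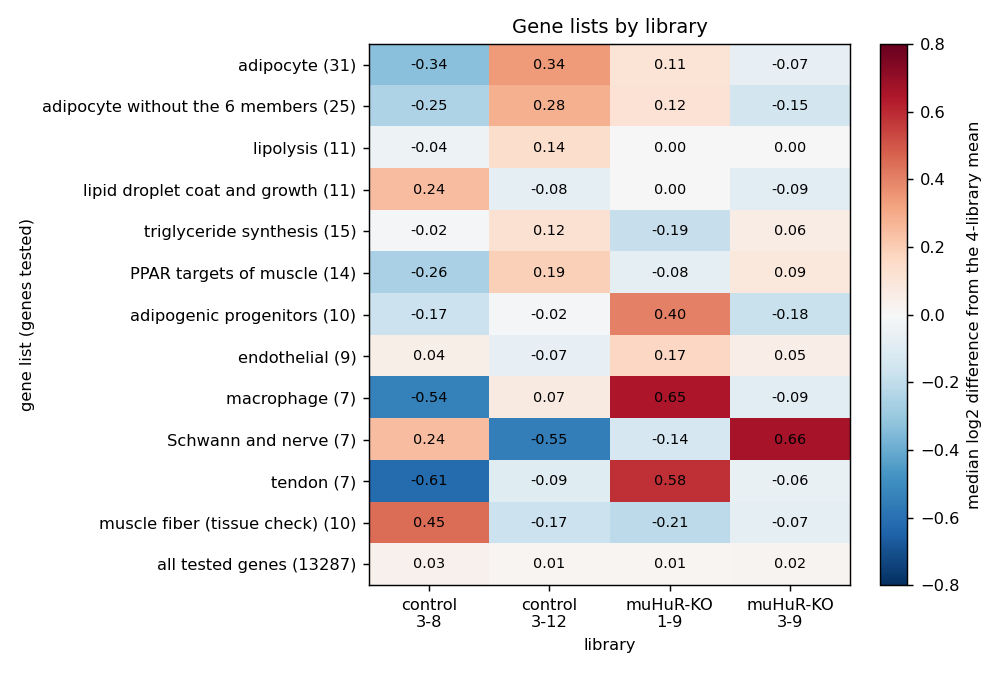
Median over the genes of each list of the log2 difference of a library from the gene's mean over the 4 libraries, by color and number, with the number of genes tested in brackets. Adipocyte genes run from -0.34 in control 3-8 to 0.34 in control 3-12. Macrophage and tendon genes are highest in muHuR-KO 1-9 (0.65 and 0.58) and Schwann genes in muHuR-KO 3-9 (0.66).

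The adipokines act through receptors that were also measured. Lepr, the leptin receptor, was at 36.1 normalized counts in control 3-8 and 116 in control 3-12, with 79.3 (1-9) and 122 (3-9) in muHuR-KO. Of 7 receptor genes tested it alone passed, with 1.42 on the log2 scale against control 3-8 (standard error 0.38, adjusted p = 0.0436, limma). Against control 3-12 its log2 fold change was -0.23. Like its ligand, Lepr was lowest in control 3-8, but the other 3 mice were not in the order of Lep. The adiponectin receptors were far more abundant. Adipor1 had 7068 normalized counts in control 3-8 and 4605 to 5664 in the other 3, and Adipor2 had 2753 to 3909. Cdh13, which encodes T-cadherin, a binding protein for adiponectin, was at 4843 in control 3-8 and between 3177 and 3359 in the others. Cap1 and Tlr4, both named as resistin receptors, were at 798 to 1113 and 146 to 285, and the complement receptor C3ar1 at 29.1 to 68.9. C5ar2, at 5.86 to 14.8, was below the filter.

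Plin4 encodes perilipin 4, a long coat protein of small droplets made in white fat and in muscle. Its gene (ENSMUSG00000002831.13, chromosome 17, 56100591 to 56109803, minus strand) lies 1797 bases downstream of Plin5 (ENSMUSG00000011305.11, 56111601 to 56117596, minus strand). Plin5 encodes perilipin 5, which ties droplets to mitochondria in oxidative muscle and heart. Hdgfl2 overlaps Plin4 on the opposite strand by 17 exonic bases, and the strand setting of the counting is not given in the sources used here. The promoters of these neighbors are shown since their levels ran closest to each other. They are chr17:56109733-56110032 for Plin4 and chr17:56117499-56117798 for the first start of Plin5, minus strand, GRCm38.p6, from RefSeq.
Plin4: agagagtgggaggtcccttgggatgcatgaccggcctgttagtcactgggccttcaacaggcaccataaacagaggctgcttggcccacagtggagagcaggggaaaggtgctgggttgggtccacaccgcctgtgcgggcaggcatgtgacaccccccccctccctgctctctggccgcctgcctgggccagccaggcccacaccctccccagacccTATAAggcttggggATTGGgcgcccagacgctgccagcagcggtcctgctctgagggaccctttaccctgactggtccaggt
Plin5: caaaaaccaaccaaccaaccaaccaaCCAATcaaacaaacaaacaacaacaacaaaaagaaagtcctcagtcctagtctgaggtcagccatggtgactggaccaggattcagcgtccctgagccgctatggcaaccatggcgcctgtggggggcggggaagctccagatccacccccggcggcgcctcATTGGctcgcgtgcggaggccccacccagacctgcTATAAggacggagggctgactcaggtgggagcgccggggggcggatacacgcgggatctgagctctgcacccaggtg
In capitals are TATAA, at position -32 in Plin4 and -27 in Plin5, and CCAAT on either strand, at -18 in Plin4 and at -224 and -62 in Plin5. CCAAT occurs in 37.4% of the 32851 promoters. Neither window holds TTGCNNAA. The half-site AGGTCA of nuclear receptors such as the PPARs begins at -170 in Plin5, is present in Plin2 on the other strand at -218, and was not matched in Plin4. It occurs in 16.3% of the promoters on either strand. No motif marked here overlaps another.

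Plin4 was at 8076 normalized counts in control 3-8 and 11850 in control 3-12, with 9401 (1-9) and 14521 (3-9) in muHuR-KO. Plin5 was at 699, 894, 720 and 1198 in the same order. Both were lowest in control 3-8 and highest in muHuR-KO 3-9, and both differed more between the muHuR-KO mice (1.54-fold and 1.66-fold) than between the controls (1.47-fold and 1.28-fold). The ratio of Plin4 to Plin5 was 11.6 in control 3-8 and 13.3 in control 3-12, with 13.1 (1-9) and 12.1 (3-9) in muHuR-KO, a range of 1.15-fold. By contrast the ratio of Plin4 to Adipoq was 48.6, 20.8, 32.8 and 52.1. Across these mice Plin4 thus ran closest to Plin5, at a root mean square difference of 0.081 between centered log2 values. It was 0.23 from Cfd and 0.29 from Cidec, nearer than to Pnpla2 (0.38) and Plin2 (0.40). Log2 fold changes of Plin4 were 0.26 against both controls (standard error 0.33), 0.53 against control 3-8 (standard error 0.28, adjusted p = 0.301, limma) and -0.020 against control 3-12 (standard error 0.28). Those of Plin5 were 0.23 (standard error 0.33), 0.41 (standard error 0.30, adjusted p = 0.439, limma) and 0.055 (standard error 0.30). The sign against control 3-12 turned for Plin4 with other scalings and for Plin5 after the correction for GC content.

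Plin2 encodes perilipin 2, the coat of droplets in most cells outside fat. The gene (ENSMUSG00000028494.12, chromosome 4, 86648386 to 86670060, minus strand) was at 1000 normalized counts in control 3-8 and 776 in control 3-12, with 835 (1-9) and 900 (3-9) in muHuR-KO. Pnpla2 (ENSMUSG00000025509.15, chromosome 7, 141455198 to 141460743, plus strand) was at 11315, 9718, 8420 and 10040. Both were highest in control 3-8, where the adipocyte genes were lowest. Plin2 was lowest in control 3-12 and Pnpla2 in muHuR-KO 1-9. After the correction for GC content Pnpla2 was highest in control 3-12. The groups overlapped, and controls and muHuR-KO averaged 888 ± 158 and 868 ± 45.8 for Plin2 and 10516 ± 1129 and 9230 ± 1145 for Pnpla2 (SD, n = 2 each). Their log2 fold changes against both controls were -0.023 (standard error 0.27) and -0.19 (standard error 0.27). Against control 3-8 they were -0.21 (standard error 0.22, adjusted p = 0.593, limma) and -0.30 (standard error 0.23, adjusted p = 0.459, limma), and against control 3-12 0.16 and -0.080. The sign of Plin2 against both controls turned with TMM factors, edgeR and the GC correction.

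**Figure D4:**
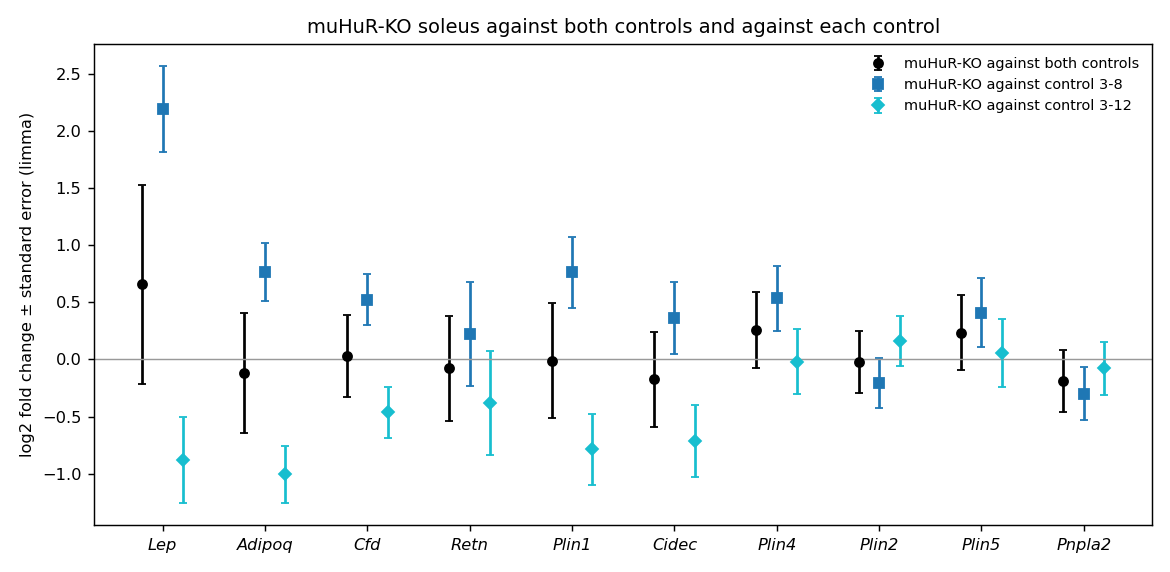
Log2 fold change of muHuR-KO with its standard error from limma (vertical axis) for each of the 10 genes, against both controls (black), control 3-8 (blue) and control 3-12 (cyan). The estimates for the adipocyte genes lie above 0 against control 3-8 and below 0 against control 3-12, as for Adipoq (0.76 and -1.01). Those of Plin2 and Pnpla2 stay within 0.30 of 0.

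ATGL is switched on by ABHD5 and held back by G0S2, so the proportions of these mRNAs were compared. The ratio of Pnpla2 to Abhd5 was 9.46 in control 3-8 and 7.69 in control 3-12, with 7.91 (1-9) and 8.58 (3-9) in muHuR-KO. The ratio of Pnpla2 to G0s2 was 21.0, 17.2, 16.4 and 22.6. Neither ratio separated the groups. Of 11 genes of lipolysis, 2 rose and 0 fell against control 3-8, where 9.69% of all genes rose, and 0 passed in the other comparisons. These were Pnpla8, a phospholipase of mitochondria and peroxisomes (1.39 on the log2 scale, standard error 0.22, adjusted p = 0.00852, limma), and Pnpla3, a droplet lipase related to Pnpla2 (1.30, standard error 0.29, adjusted p = 0.0216, limma). Pnpla8 was at 1340 normalized counts in control 3-8 and 4074, 3188 and 3874 in control 3-12, muHuR-KO 1-9 and muHuR-KO 3-9, so control 3-8 alone was low. Mgll, Abhd5 and Lipe, with Pnpla8 the most abundant of the 11, did not pass.

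Of 14 genes of droplet coat and growth, 11 were tested and 0 passed in any comparison. The most abundant were Fitm1, a protein of droplet formation (5515, 3409, 3199 and 4088 normalized counts in control 3-8, control 3-12, muHuR-KO 1-9 and muHuR-KO 3-9), Rab18, Plin3 and Aup1. Cideb had 0 reads in all 4 libraries. Against control 3-8, where 9.69% of all genes rose, 1 of 15 tested genes of triglyceride synthesis rose, Acsl3, an acyl-CoA synthetase of growing droplets (1.03 on the log2 scale, standard error 0.23, adjusted p = 0.0203, limma). Of 14 PPAR targets of muscle, 2 rose in that comparison, the fatty acid transporter gene Cd36 and the uncoupling protein gene Ucp3. Cd36 was at 10003 normalized counts in control 3-8 and 22975, 17420 and 20466 in control 3-12, muHuR-KO 1-9 and muHuR-KO 3-9. For each gene called in these lists, control 3-8 was below all 3 other libraries. The call itself favors muHuR-KO above control 3-8, so only the place of control 3-12 was free.

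Because control 3-8 shifted with GC content, the 10 genes were set against theirs, which was 47.5% for Adipoq, 48.7% for Lep, 49.3% for Retn and 52.1% to 58.9% for the other 7. Values of each library were corrected by a loess curve of log2 values against GC content and tested again. Against control 3-8, 6.38% of genes then passed, 498 higher and 344 lower, in place of 1287 higher and 17 lower before. Of the 10 genes, 4 passed as higher: Lep (2.12, adjusted p = 1.08e-04, limma), Plin1 (0.99, adjusted p = 0.0454), Cfd (0.76, adjusted p = 0.0354) and Plin4 (0.76, adjusted p = 0.0479). Adipoq had 0.59 with an adjusted p of 0.220. This fit took its spread from the trend over all genes alone, with no part from the spread of each gene. The difference of control 3-12 from control 3-8 on the log2 scale was 2.98 for Lep after the correction and 3.07 before it. It was 1.58 and 1.77 for Adipoq, 1.86 and 1.55 for Plin1, 1.37 and 1.07 for Cidec, 1.32 and 0.98 for Cfd, and 0.57 and 0.60 for Retn. The 6 adipocyte genes therefore kept the sign of their difference between the controls. Pnpla2 turned from -0.22 to 0.090. Plin4 went from 0.55 before the correction to 0.84 after it and Plin5 from 0.35 to 0.70, both then above Retn. Plin2 went from -0.36 to -0.20.

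Per length of exon the 10 genes spanned a wide range. Mean normalized counts per kilobase over the 4 libraries were 3269 for Pnpla2 (2788 to 3747), 1898 for Plin4 (1398 to 2514) and 1237 for Cfd (844 to 1672). They were 421 for Plin5 (335 to 574), 250 for Plin2 (221 to 285) and 235 for Adipoq (120 to 412). Lowest were Cidec at 87.2 (61.0 to 129), Plin1 at 27.9 (15.1 to 44.7), Lep at 18.6 (3.78 to 34.0) and Retn at 16.7 (13.6 to 21.0). Pnpla2 and Plin4 did not overlap in range, nor did Cfd and Plin5, Plin5 and Plin2, or Cidec and Plin1, while the other neighbors in this order overlapped. By the longest transcript in place of all exons, Plin2 stood above Plin5 and Retn above Lep.

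The genes whose pattern over the 4 libraries was nearest to that of Adipoq, among 11182 genes that averaged 50 or more normalized counts, were Foxp2, Esrrg, Fyco1, Dkk2, Agbl1, Dpyd, Hnrnph3 and Ezh2. Plin1 stood at place 14, Cfd at 389, Cidec at 416 and Lep at 4335. Within the nearest 100 were 2 genes of the adipocyte list. Nearest to Plin5 were Mfap1b, Tfcp2l1, Lmln, Sesn1, Phf15, Dhtkd1, Wee1 and Col7a1, with Plin4 at place 9. Of the adipocyte list, 2 genes were also within the nearest 100 to Plin5. Likeness was the root mean square difference of centered log2 values, which was 0.14 between Adipoq and Plin1 and 0.081 between Plin4 and Plin5. With 4 libraries many genes share any pattern, and this order is a description with no test.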

How the data were processed

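The signal columns of the deposited table are the authors' normalized counts: reads of 4 soleus libraries (2 muHuR-KO, 2 control; NextSeq, paired-end) aligned to mm10 (GRCm38) with TopHat2 2.0.10, counted with HTSeq 0.6.1 and divided by DESeq2 size factors. The DESeq2 version, annotation and strand setting are not given in the sources used here. Division by size factors removes depth but no GC trend. The authors' mean, shrunken and unshrunken log2 fold changes, standard errors, Wald statistics and p-values were not used. Whole reads were recovered (100% whole within 0.01). limma 3.58.1 (R 4.3.3) was fitted to log2(normalized count + 1) with eBayes and a trend over the 13287 genes averaging 10 or more, with Benjamini-Hochberg adjustment and a threshold of 0.05. Tests are two-sided. The fit against both controls had 2 residual and 5.62 prior degrees of freedom. Each control was also compared as a group of its own (1 residual and 8.34 prior degrees of freedom). After the GC correction the prior degrees of freedom were infinite, so that fit took its spread from the trend alone. Fits were also run on simulated counts. The share of false calls in those runs is not given here, so they do not show that every comparison is sound.

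The genes, lists and tests were chosen with earlier results of these data known. Named are the 10 genes, Elavl1, adipokine receptors, up to 4 genes of highest mean and up to 4 called genes per list, and the 8 genes of nearest pattern to Adipoq and Plin5, with exceptions stated. Exon lengths, GC content and coordinates are from GENCODE M21, and promoters from RefSeq (GRCm38.p6), matched for all 10 genes. Alternatives were pseudocounts of 0.5 and 5, no filter or a mean of at least 50, TMM factors, no trend, the recovered reads in edgeR 4.0.16 and in DESeq2 1.42.0, a GC loess correction (span 0.4), and leaving out each library. Python 3.11.15 with pandas 2.3.3 and matplotlib 3.10.9 served for lists and figures.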

Additional observations from a re-analysis of the deposited data

How the results depend on the processing

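Against both controls, 0 genes and 0 of the 10 genes followed here passed under every alternative that kept all 4 libraries. Leaving out 1 library gave 0 to 1266 genes (1266 without control 3-12, 2 without control 3-8) and 0 to 1 of the 10 (Lep, without control 3-12). Against control 3-8, 0 genes and 0 of the 10 passed with no filter and without a trend, and 842 genes and 4 of the 10 after the GC correction. Against control 3-12, edgeR called 1 gene, DESeq2 9 and the GC correction 84. Against both controls the log2 fold change turned sign for Lep (-0.011) and Cfd (-0.042) with DESeq2. It also turned for Plin1 with TMM factors (0.028) and the GC correction (0.064), and for Plin2 with TMM factors (0.018), edgeR (0.013) and the GC correction (0.023). Against control 3-12 it turned for Plin4 with TMM factors (0.024), edgeR (0.056) and DESeq2 (0.011), and for Plin5 after the GC correction (-0.039). The causes of these turns were not tested. Without 1 library, the log2 fold change against the controls that remain ran from -0.88 to 2.19 for Lep, -1.01 to 0.76 for Adipoq, -0.46 to 0.52 for Cfd, -0.38 to 0.22 for Retn, -0.79 to 0.76 for Plin1 and -0.71 to 0.36 for Cidec. It ran from -0.057 to 0.57 for Plin4, -0.21 to 0.16 for Plin2, -0.14 to 0.60 for Plin5 and -0.32 to -0.063 for Pnpla2. The comparisons with 1 control could not be fitted without a muHuR-KO library, since no residual degree of freedom is left, and Retn is lost with a mean of at least 50. No paired analysis was possible because nothing in the labels pairs a muHuR-KO mouse with a control, and the replicate numbers used here only name the libraries. Depth limits Lep and Retn most, with 13 to 90 and 18 to 39 reads.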
